A study of Drosophila melanogaster with 4 samples.

Results

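The vacuolar proton ATPase (V-ATPase) is the pump that acidifies lysosomes, endosomes and secretory vesicles, and in some epithelia it also moves protons across the plasma membrane. Its genes in Drosophila melanogaster were taken here as every row of the deposited table whose symbol begins with Vha, which gave 31 of 17490 genes. By the subunit that each symbol stands for, 11 genes belong to the soluble V1 sector, 18 to the membrane-bound V0 sector, and 2 encode accessory proteins. Subunits E and G of V1, encoded by Vha26 and Vha13, were not analysed here.

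In V1, a ring of alternating A and B subunits hydrolyses ATP and turns a central stalk made of subunits D and F, while peripheral stalks with subunits C and H hold the ring in place. The stalk turns a ring of proteolipid subunits, c and c'', against subunit a, which carries the paths that protons follow across the membrane. Each pump holds several copies of A, B and c and a single copy of most other subunits. In flies most subunits have more than 1 gene, and several of these gene copies are known to be expressed in few tissues.

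Messenger RNA bound to ribosomes was measured in ovaries by translating ribosome affinity purification (TRAP), in which a GFP-tagged ribosomal protein is made in chosen cells and its ribosomes are pulled down with an antibody against GFP. The soma group had the genotype tj:gal4, UAS RPL10-GFP, and tj (traffic jam) drives expression in the somatic lineage of the ovary, mainly follicle cells. The germline group had the genotype Nos:Gal4Vp16, UAS:RPL10-GFP, and nos (nanos) drives expression in germ cells. Both groups carried the tagged ribosomal protein, ovaries of 100 females were dissected for each genotype, and each group had 2 libraries. The replicates are described by the study as biological, but the sources used here do not say how the dissected ovaries were divided between libraries, so p-values measure the spread between these libraries. Cell type, driver and genotype changed together and cannot be told apart. Values are FPKM, fragment counts scaled to exon length and by a factor for each library. Being per length, they allow an approximate comparison between genes.

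The libraries differed in depth. Reads on genes other than rRNA, recovered from the FPKM, numbered 17013813 in soma replicate 1, 629199 in soma replicate 2 and 1194623 and 1313996 in the germline replicates. Reads on rRNA made up 6.22% of soma replicate 1 and 55.6% to 74.3% of the other 3 libraries. Soma replicate 2 stood apart in its composition, since its summed FPKM without rRNA was 151.6% of the mean of the 4 libraries, against 72.5% to 89.3% in the others, and a single unnamed gene, FBgn0085364, reached 87680 FPKM there. All 5 follicle cell markers in the table had higher values in both soma libraries, and the germline libraries held 7.26% to 11.8% of their soma level. All 6 germ cell markers had higher values in both germline libraries, but the soma libraries held 28.8% to 48.6% of their germline level. The part that this signal plays in the results below was not tested. Among markers of other tissues, 3 of 4 haemocyte, 3 of 4 midgut, 2 of 3 fat body and 1 of 4 Malpighian tubule markers were at 0 in all 4 libraries. None of the 5 muscle sheath markers was at 0, and they summed to 1.78 to 16.8 FPKM with no order between the groups. The tubule list summed to 43.9 and 68.5 FPKM in the soma and 1.54 and 1.63 FPKM in the germline, nearly all from Best2, which passed the test towards the soma.

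The same members of the family carried nearly all of its reads in both cell types. Of the 31 genes, 14 averaged 10 FPKM or more over the 4 libraries, VhaM9.7-c lay just below that level, and the other 16 averaged below 1 FPKM. Among these 16, 9 genes were at 0 in all 4 libraries, namely Vha36-2, Vha14-2, Vha100-3, Vha16-2, Vha16-3, Vha16-4, Vha16-5, VhaM9.7-a and VhaM9.7-d. For these 9 genes 3 reads would be worth 0.0238 to 0.142 FPKM in soma replicate 1, so higher levels would have been detectable in that library. The same 3 reads would be worth 0.282 to 2.07 FPKM in the germline libraries and 0.829 to 4.9 FPKM in soma replicate 2. Lower levels could have been missed in those libraries. The 14 genes were expressed at levels above those of at least 76.66% of the genes tested in the soma and 71.1% in the germline. Much of this standing follows from the cut at 10 FPKM that picked them, which 3646 of the 8823 genes tested passed. In bulk pull-downs, fewer cells of a type and less RNA per cell cannot be told apart.

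**Figure D1:**
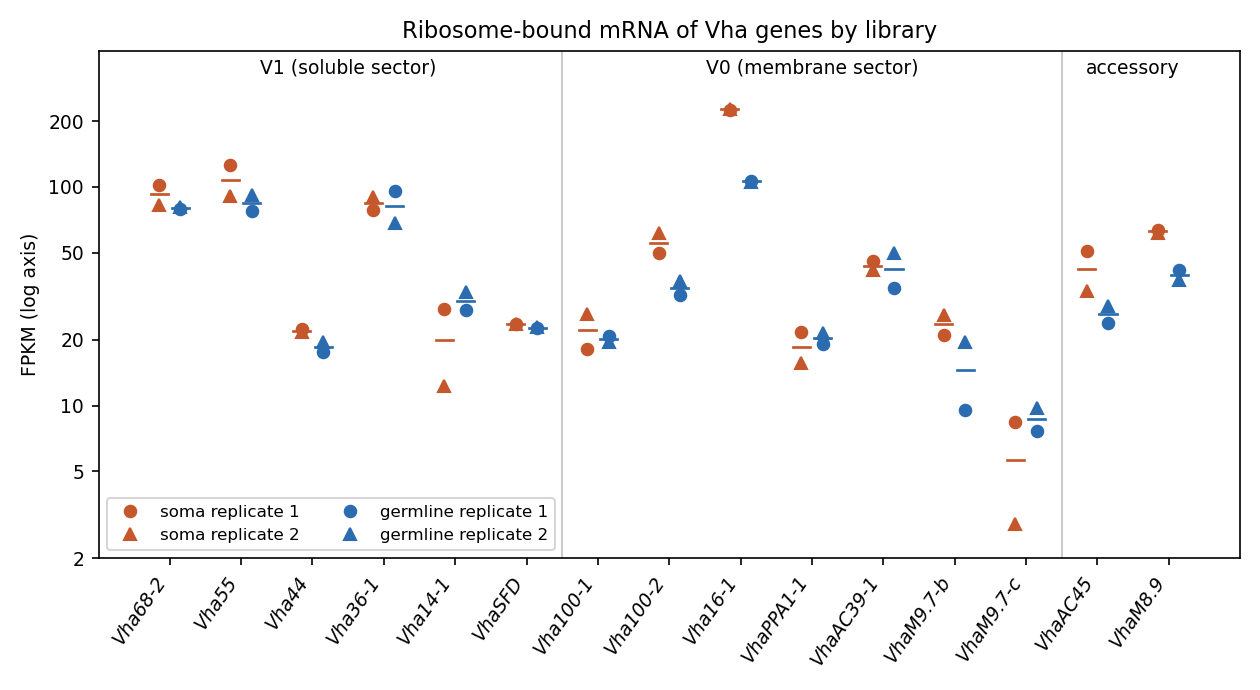
FPKM (log axis) of the 15 most strongly read Vha genes in each of the 4 TRAP libraries, with short bars at the group means and genes ordered by sector. Vha16-1 stands above the other genes and is the gene with the widest gap between groups, at 225.0 and 227.5 FPKM in the soma and 106.8 and 105.8 FPKM in the germline.

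None of the 18 Vha genes that passed the filter on low values (an average of 0.1 FPKM or more) differed between soma and germline at a Benjamini-Hochberg adjusted p under 0.05 with limma, while 12.2% of the 8823 genes tested did. At an unadjusted p under 0.05 there were 3 of 18, Vha16-1, Vha100-2 and VhaM8.9, all with higher soma means, against 27.8% of all genes in either direction and 16.8% towards the soma. Limma-voom on the recovered reads called 1 of the 18, Vha16-1, against 18.5% of all genes, and 4 of 18 at an unadjusted p under 0.05, against 32.5% of all genes. The cut-offs used by the study, a 5-fold difference with an unadjusted p under 0.05, were applied to the limma values used here. No Vha gene passed them, while 9.41% of all genes passed towards the soma and 1.08% towards the germline. The study's own test was not repeated. In simulated libraries with the same depths, limma recovered 1 of 50 genes changed 2-fold and 35 of 50 changed 4-fold at the adjusted threshold. At an unadjusted limma p under 0.05 it recovered 26 and 50 of them. The simulation changed a much smaller share of its 8246 genes than the 12.2% called in the data, which makes its adjusted threshold stricter. It therefore cannot say how often a 2-fold difference would be called in these data.

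Among the 14 genes at 10 FPKM or more, 0 were called by limma at the adjusted threshold, against 19.2% of the 3646 genes at that level. Of the 14, 13 (92.9%) differed by less than 2-fold, against 69.2% of the 3646. Their log2 fold changes, soma minus germline on the log2(FPKM + 0.1) scale, ran from -0.70 to 1.09 with a median of 0.23, beside a median of -0.06 and quartiles of -0.63 and 0.60 over the 3646 genes. In 8 of the 14 (57.1%) both soma libraries lay above both germline libraries, and in none was the order the opposite. Among the 3646 genes those shares were 30.0% and 34.2%, and among all 8823 genes tested 29.6% and 25.8%. This count depends on the scaling of the libraries. When each library was rescaled to the same summed FPKM without rRNA, which moved the median of all genes to -0.44, the count was 1 of 14 towards the soma and 2 of 14 towards the germline. Among the 3646 genes the shares were then 15.7% and 47.9%. With quantile normalization the count was 4 and 0, against 28.6% and 38.0% of the 3646 genes. Over all 31 genes, with those at 0 included, the median log2 difference was 0.05.

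**Figure D2:**
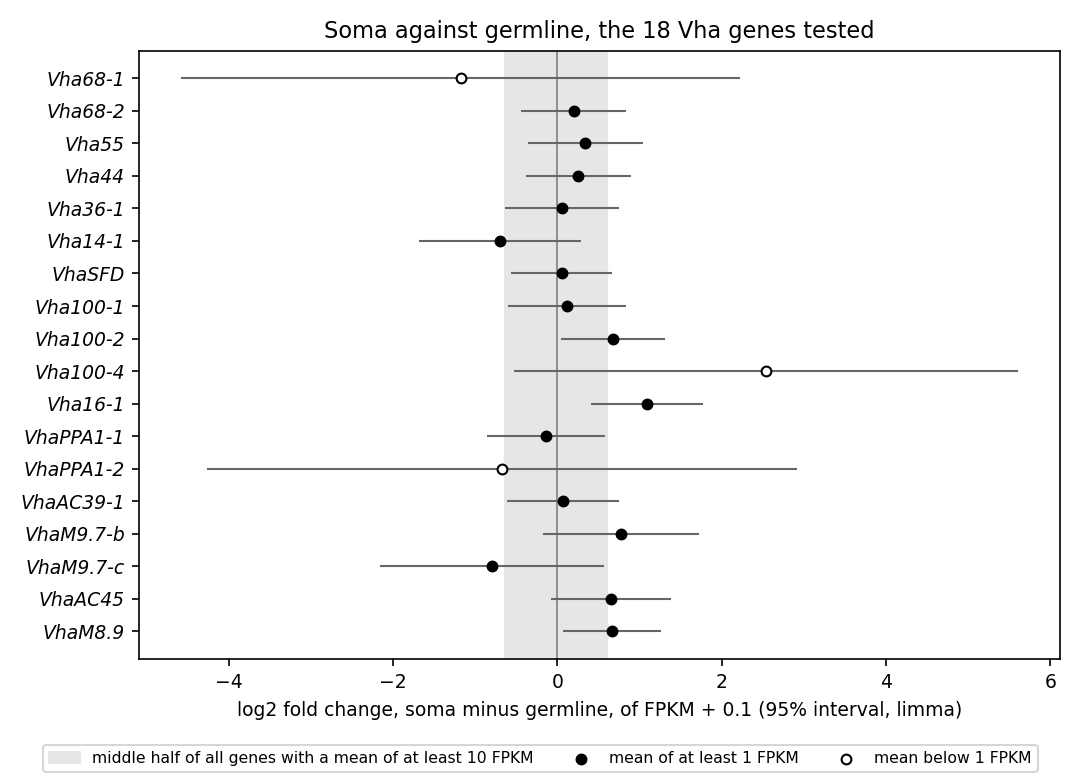
Log2 fold change (soma minus germline, on FPKM + 0.1) of the 18 Vha genes tested, with 95% intervals from limma; open points average below 1 FPKM and the grey band spans the quartiles of all genes at or above 10 FPKM. Most intervals cross 0, those of Vha16-1, Vha100-2 and VhaM8.9 lie above it, and no gene passed the adjusted threshold.

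In the catalytic head of the pump, the differences between group means were smaller than the gaps between the soma replicates. Vha68-2, which encodes the catalytic A subunit, had 102.0 and 82.9 FPKM in the soma and 79.2 and 81.3 FPKM in the germline. The soma values lay above the germline values, but the nearest ones were close, and the fold of 1.15 had an interval of 0.736 to 1.79 (limma adjusted p = 0.66). Vha55, the only gene of the nucleotide-binding B subunit in the table, had 125.4 and 90.8 FPKM in the soma and 77.3 and 91.8 FPKM in the germline. The groups overlapped, with a fold of 1.27 (0.777 to 2.07, limma adjusted p = 0.50). The sign of both differences turned under equal summed FPKM, to log2 fold changes of -0.31 for Vha68-2 and -0.17 for Vha55. The median of all genes was then -0.44.

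In the genes of the central stalk the groups overlapped. Vha36-1, for subunit D of the rotor, had 78.8 and 89.9 FPKM in the soma and 95.6 and 68.4 FPKM in the germline, so that the germline values enclosed those of the soma. Vha14-1, for subunit F of the rotor, had 27.6 and 12.3 FPKM in the soma and 27.4 and 33.1 FPKM in the germline. Its lowest value came from 10 reads in soma replicate 2, with an exact Poisson interval of 5.90 to 22.6 FPKM for counting error only. The log2 fold change of -0.70 (SE 0.41, limma adjusted p = 0.33) became -0.12 without that library.

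Subunits C and H tie V1 to V0, and in yeast H is known to silence V1 once it has come off the membrane. Vha44, for subunit C, had 22.3 and 21.8 FPKM in the soma and 17.5 and 19.5 FPKM in the germline (log2 fold change 0.25, SE 0.27, limma adjusted p = 0.58). Its exons overlap those of Hmgs on the other strand, and whether the counting used strand is not given in the sources used here. VhaSFD, for subunit H, had the smallest fitted difference of the 18 genes tested, with 23.5 FPKM in both soma libraries and 22.6 and 22.8 FPKM in the germline. Its fold of 1.03 had an interval of 0.675 to 1.59 (limma adjusted p = 0.92). The order of its groups, soma above germline, rested on differences of under 1 FPKM. Under equal summed FPKM its log2 fold change was -0.46 and that of Vha44 was -0.25, where the median of all genes was -0.44.

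The proteolipid of the rotor ring showed the widest gap among the expressed members. Vha16-1, the c subunit gene on chromosome 2R (6625242 to 6633090 of BDGP6.54), had 225.0 and 227.5 FPKM in the soma and 106.8 and 105.8 FPKM in the germline. The replicates lay close together and the groups far apart, with means of 226.2 ± 1.76 and 106.3 ± 0.759 FPKM (SD, n = 2 each). These values rested on 29712 and 863 reads in the soma and 966 and 1180 reads in the germline. The log2 fold change was 1.09 (SE 0.29), a 2.13-fold difference with an interval of 1.33 to 3.41, at a limma p of 0.0071 and an adjusted p of 0.055. The adjusted p was 0.014 with limma-voom, where the log2 fold change was 1.10, and up to 0.44 under the other settings, highest under equal summed FPKM, where the log2 fold change was 0.58. The median of all genes under equal summed FPKM was -0.44. Without soma replicate 2 the log2 fold change of Vha16-1 was 1.08.

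The ratio of Vha16-1 to the sum of the other 30 Vha genes, a measure that scaling of a library cannot move, was chosen after the values of Vha16-1 were seen and is given as a description. It was 0.341 and 0.385 in the soma and 0.209 and 0.196 in the germline. Within V0, Vha16-1 made up 57.7% and 56.6% of the summed FPKM in the soma and 46.2% and 40.2% in the germline. The other 4 c subunit genes, Vha16-2 to Vha16-5, were at 0 reads in all 4 libraries.

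Subunit a anchors the proton path and is known to steer the pump to a given membrane. Its main gene was Vha100-2, on chromosome 3R (18390323 to 18399169), with 49.7 and 61.4 FPKM in the soma and 32.1 and 37.0 FPKM in the germline. The groups did not overlap, and the fold of 1.60 (1.03 to 2.48) had a limma p of 0.038 and an adjusted p of 0.15. Under equal summed FPKM its log2 fold change of 0.68 became 0.17, where the median of all genes was -0.44. Vha100-1, also on chromosome 3R (29131193 to 29137980) and known in fly neurons for its role at synaptic vesicles, had 18.2 and 26.1 FPKM in the soma and 20.8 and 19.5 FPKM in the germline. Its groups overlapped, with a log2 fold change of 0.12 (SE 0.30, limma adjusted p = 0.83).

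Vha100-4 was read in the soma alone, at 0.239 and 0.892 FPKM from 28 and 3 reads, and was at 0 in both germline libraries. Set against a floor of 3 reads in each germline library (a mean of 0.339 FPKM), the soma mean was 1.67 times that floor. This mean rests mostly on soma replicate 2, whose 3 reads have an exact Poisson interval of 0.184 to 2.61 FPKM. Soma replicate 1, the deep library, was at 0.706 of that floor. So the depth of the germline libraries could not show a difference from soma replicate 1. The gene lies 517 bases from Vha100-2 on the same strand, downstream of it, and overlaps exon bases of cona on the other strand. Its limma adjusted p was 0.26, and 0.036 without soma replicate 1, where the soma rests on 3 reads.

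With limma, none of the remaining V0 genes passed the adjusted threshold either. VhaPPA1-1, for the c'' proteolipid, had 21.6 and 15.6 FPKM in the soma and 19.1 and 21.4 FPKM in the germline. VhaAC39-1, for subunit d, which couples the stalk to the ring, had 45.6 and 41.6 FPKM in the soma and 34.6 and 49.9 FPKM in the germline. In both genes the groups overlapped, with log2 fold changes of -0.14 and 0.07 (limma adjusted p = 0.79 and 0.89). VhaM9.7-b, for the small membrane subunit e, had 21.0 and 26.01 FPKM in the soma and 9.51 and 19.5 FPKM in the germline. Its groups did not overlap, but the germline replicates were 1.03 apart on the log2 scale, and the log2 fold change of 0.77 (SE 0.40, limma adjusted p = 0.27) became 0.26 without germline replicate 1.

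Both accessory genes had higher values in the soma libraries. VhaM8.9, the fly counterpart of the prorenin receptor (ATP6AP2), had 63.2 and 61.9 FPKM in the soma and 41.7 and 37.4 FPKM in the germline. Its means were 62.6 ± 0.970 and 39.6 ± 3.07 FPKM (SD, n = 2 each), a log2 fold change of 0.66 (SE 0.25) with a limma p of 0.034 and an adjusted p of 0.14. VhaAC45, the counterpart of ATP6AP1, which assists assembly of V0, had 50.7 and 33.4 FPKM in the soma and 23.8 and 28.6 FPKM in the germline (log2 fold change 0.65, SE 0.31, limma adjusted p = 0.22). Neither gene's groups overlapped, but under equal summed FPKM the log2 fold changes were 0.15 for both, where the median of all genes was -0.44.

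Summed by sector, the gap between the groups was widest in V0, but most of that gap came from Vha16-1 alone. Group means of the V0 sum were 396.1 (soma) and 247.0 (germline) FPKM, of which Vha16-1 held 226.2 and 106.3. The 11 V1 genes summed to 380.7 and 321.3 FPKM in the soma and 320.8 and 317.1 FPKM in the germline. The 18 V0 genes summed to 390.1 and 402.0 FPKM in the soma and 231.1 and 262.9 FPKM in the germline. These sums depend on the deposited scaling, and V1 was summed without subunits E and G. The ratio of V1 to V0, which does not depend on scaling, was 0.976 and 0.799 in the soma and 1.39 and 1.21 in the germline, a log2 difference of -0.55 (exact permutation p = 0.333, the smallest that 2 libraries against 2 allow). With Vha16-1 left out of V0, an alternative chosen after seeing the data, the ratios were 2.31, 1.84, 2.58 and 2.02, the groups overlapped, and the log2 difference was -0.15 (exact permutation p = 0.667). With the median over subunits in place of the sum it was -0.02. All 31 genes together came to 0.371% and 0.196% of the summed FPKM without rRNA in the soma and 0.251% and 0.324% in the germline.

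The order of the subunits by level was much the same in both groups. Subunit c, read from Vha16-1, came highest in each of the 4 libraries. In the soma the order of the means was c, B, A, D, a, VhaM8.9, d, Ac45, e, H, C, F and c''. In the germline it was c, B, D, A, a, d, VhaM8.9, F, Ac45, e, H, c'' and C. In the germline the values of A, B and D overlapped, so their order was not resolved. In the soma those of A overlapped with both others, while both values of B lay above both of D, at 125.4 and 90.8 against 78.9 and 89.9 FPKM. In soma replicate 2, however, the exact Poisson intervals for counting error overlapped. They were 81.03 to 101.5 FPKM for Vha55 and 74.45 to 107.7 FPKM for Vha36-1. At the low end, C, H, c'' and F lay between 12.3 and 33.1 FPKM in all 4 libraries.

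Most subunits were read from a single paralogue. Vha68-2 made up at least 98.58% of subunit A, VhaPPA1-1 at least 97.4% of c'' and VhaAC39-1 at least 99.55% of d in each library. Vha36-1 made up at least 99.9% of D, and Vha14-1 and Vha16-1 were the only genes of F and c above 0. The second copy of subunit A, Vha68-1, had 0.896 and 0 FPKM in the soma and 1.14 and 0.309 FPKM in the germline, from 103, 0, 9 and 3 reads. Its groups overlapped, and its log2 fold change of -1.18 turned to 0.48 without soma replicate 2 and to 0.37 with limma-voom. Vha68-3, which starts 178 bases after Vha68-2 on chromosome 2L and the same strand, had 6 reads in soma replicate 1 and none elsewhere. The other copies above 0 had 1 to 5 reads in any library that held them, namely Vha36-3, Vha100-5, VhaPPA1-2 and VhaAC39-2. Whether reads on such copies came from near-identical stretches of the main gene was not tested.

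Subunits a and e were split between 2 genes each, and the split differed between libraries. The ratio of Vha100-2 to Vha100-1 was 2.73 (exact counting interval 2.61 to 2.86) and 2.35 (1.86 to 2.98) in the soma, and 1.54 (1.29 to 1.85) and 1.90 (1.62 to 2.24) in the germline. Both soma libraries lay above both germline libraries, a log2 difference of 0.56 with an exact permutation p of 0.333, though the counting intervals of soma replicate 2 and germline replicate 2 overlapped. Vha100-2 made up 72.9% and 69.4% of subunit a in the soma and 60.7% and 65.5% in the germline, a difference of 8.07 percentage points that ran from 5.65 to 10.5 when each library was left out in turn.

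For subunit e, VhaM9.7-c had 8.44 and 2.87 FPKM in the soma and 7.62 and 9.76 FPKM in the germline (log2 fold change -0.79, SE 0.57, limma adjusted p = 0.42), and its lowest value came from 3 reads. The ratio of VhaM9.7-b to VhaM9.7-c was 2.49 (2.19 to 2.83) and 9.07 (2.88 to 45.9) in the soma and 1.25 (0.692 to 2.32) and 2.0 (1.31 to 3.14) in the germline. The order was the same as for subunit a, with an exact permutation p of 0.333, but the counting intervals of each soma library overlapped that of a germline library. The share of VhaM9.7-b differed by 19.6 percentage points, and by 10.3 without soma replicate 2.

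**Figure D3:**
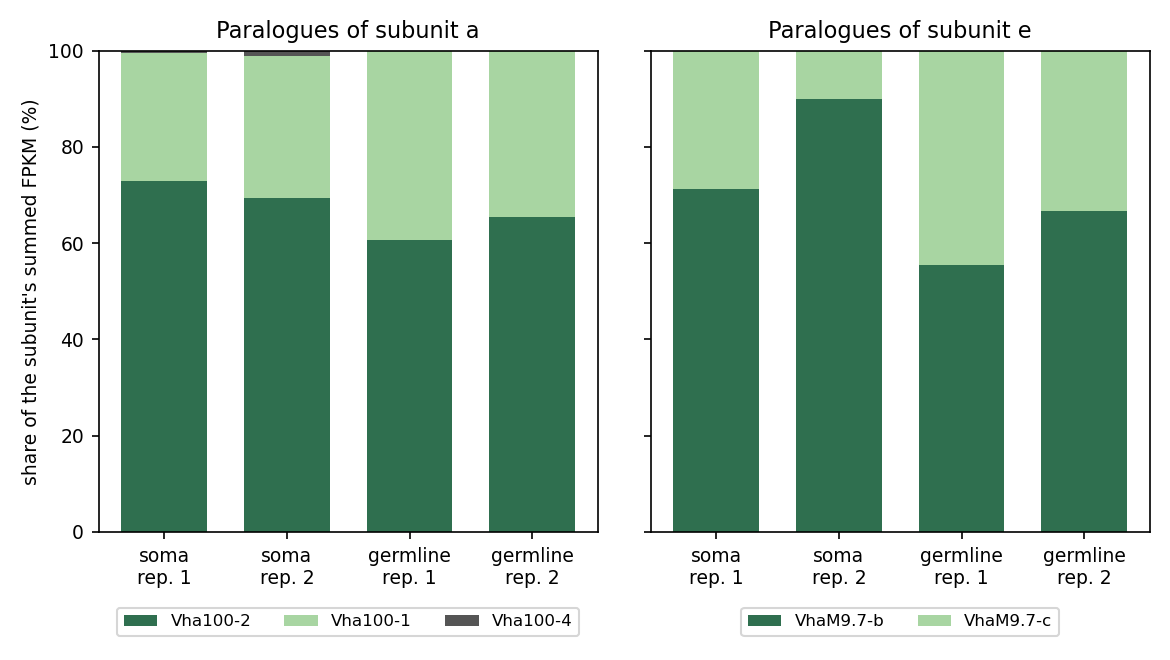
Share (%) of each paralogue in the summed FPKM of subunit a (left) and subunit e (right), with 1 bar per library and paralogues under 0.1% in every library left out. Vha100-2 takes 60.7% to 72.9% of subunit a and VhaM9.7-b 55.5% to 90.1% of subunit e, both with their lowest shares in the germline libraries.

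Genes that act with the pump were read from 3 further lists. Of 10 listed genes for assembly and regulation, 9 were in the table and 8 were tested. With limma 0 of the 8 passed the adjusted threshold, as did 0 of 7 with limma-voom. The median log2 fold change was 0.13, beside 0.04 over all genes tested. Under equal summed FPKM these medians were -0.38 and -0.44. At an unadjusted p under 0.05 there was 1 of 8 genes with limma and 1 of 7 with limma-voom, against 27.8% and 32.5% of all genes. With limma it was CG17660, named here after its values were seen, with 12.4 and 13.8 FPKM in the soma and 5.49 and 7.14 FPKM in the germline. Rbcn-3A, a rabconnectin that V-ATPase function requires in flies, had 13.7 and 14.3 FPKM in the soma and 16.0 and 15.6 FPKM in the germline. Its partner Rbcn-3B had 10.4 and 7.61 FPKM in the soma and 6.79 and 6.61 FPKM in the germline. Mitf, the transcription factor known to drive V-ATPase genes in flies, had 11.9 and 15.6 FPKM in the soma and 9.86 and 15.3 FPKM in the germline. The Mitf groups overlapped (log2 fold change 0.15, limma adjusted p = 0.81).

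Lysosome genes moved in both directions. Of 39 in the table, 33 were tested, and limma called 7 towards the soma and 3 towards the germline. Over all genes 8.64% and 3.59% were called in those directions. The median log2 fold change of the 33 was 0.67, beside 0.04 over all genes tested. Under equal summed FPKM these medians were 0.15 and -0.44. GILT3 and GILT2, of the family of lysosomal thiol reductases, were lower in the soma, with log2 fold changes of -3.52 and -2.69 (limma adjusted p = 0.0030 and 0.0052). LManII, a lysosomal alpha-mannosidase, was higher in the soma, with 60.0 and 51.6 FPKM against 10.4 and 5.24 FPKM in the germline (limma adjusted p = 0.0060). Lip4, a lipase, had 13.3 and 27.0 FPKM in the soma and 0.431 and 0 FPKM in the germline, from 3 and 0 reads (limma adjusted p = 0.0095). The membrane protein Lamp1 had 126.5 and 200.8 FPKM in the soma and 85.3 and 121.4 FPKM in the germline (limma adjusted p = 0.30). Among the 7 soma calls was bmm, singled out after its values were seen because it encodes a lipase of lipid droplets and not of lysosomes.

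Of the 7 ion exchanger and chloride channel genes, limma called 2, both towards the soma, against 8.64% of all genes called in that direction. These were ClC-a and Clic, which encode chloride channel proteins and not proton exchangers, with log2 fold changes of 3.42 and 1.47 (limma adjusted p = 0.029 and 0.031). The calls over these 3 lists, 12 in all, fell to 5 under equal summed FPKM and to 4 without the intensity trend of the fit. Over all genes tested, 1079 calls fell to 399 and 488 in the same settings. With any 1 library left out the calls were also fewer, over the lists and over all genes.

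**Figure D4:**
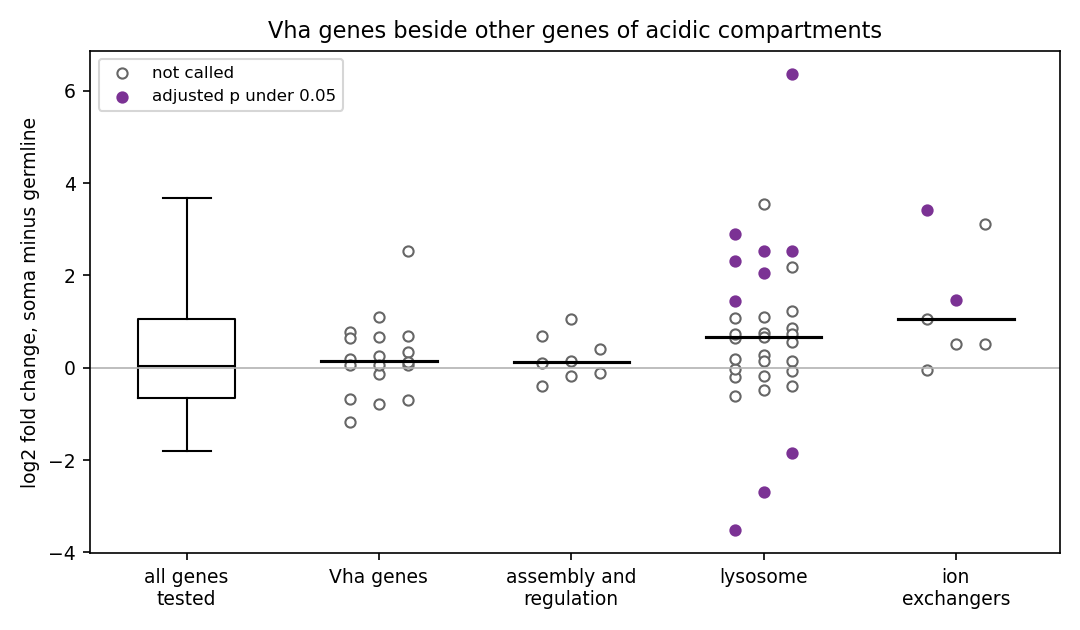
Log2 fold change (soma minus germline) of the Vha genes and of the genes in the 3 further lists, beside a box for all genes tested (box, quartiles; whiskers, the 5th and 95th percentiles); filled points passed the adjusted threshold and bars are medians. No Vha gene is filled, and the medians are 0.16 for the Vha genes tested, 0.13 for assembly, 0.67 for lysosome genes and 1.05 for the exchanger list.

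The members were spread over the genome, with 6 on chromosome 2L, 8 on 2R, 5 on 3L, 10 on 3R and 2 on X. Among close neighbours, Vha100-4 and Vha100-2 are 517 bases apart, VhaPPA1-2 and VhaPPA1-1 2052 bases apart, and Vha68-2 and Vha68-3 178 bases apart, each pair on 1 strand, and in each pair 1 gene exceeded 15 FPKM in all 4 libraries and the other stayed below 1 FPKM. Vha16-3 and Vha16-2, 985 bases apart, were both at 0.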

How the data were processed

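Ribosome-bound mRNA was sequenced from 2 soma and 2 germline libraries. The authors deposited 1 table of FPKM for 17490 genes with 1 column per library, written with decimal commas. The submitters' processing notes name cutadapt, FastQC, HISAT2, DESeq2 and the build dm6, and the counting tool, annotation and use of strand are not given in the sources used here. Coordinates and exon lengths came from Ensembl release 115 (BDGP6.54, the same assembly), in which 17216 identifiers matched directly, 85 by symbol and 189 not. Multiplying the FPKM by exon length and a constant per library gave whole reads, within 0.03, for all Vha genes and for 96.6% of genes above 0. Median-ratio factors of the FPKM were 1.019 in all 4 libraries, so the deposited values already carried such a scaling.

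The difference between soma and germline was tested on log2(FPKM + 0.1) with the moderated test and intensity trend of limma (version 3.58.1, run under R 4.3.3), in 8823 genes averaging 0.1 FPKM or more, with Benjamini-Hochberg adjustment over all of them. The pseudocount understates the fold changes of low genes. Ratios and shares were computed with scipy 1.17.1, pandas 2.3.3 and numpy 2.4.6 under Python 3.11.15, with 2-sided exact permutation tests over libraries. Intervals on reads cover counting error only. The test was tried on simulated data with the real depths. Alternatives were pseudocounts of 1 and 0.01, other filters, no trend, quantile normalization, equal summed FPKM without rRNA, limma-voom, a replicate block and each library left out.

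All Vha genes were accounted for, and those averaging 10 FPKM or more in a group, those called and the paralogue pairs were named, with Rbcn-3A, Rbcn-3B, Mitf, Lamp1 and up to 4 called genes per further list. CG17660 and bmm were named beyond this rule, after their values were seen. The members and lists were chosen with earlier results of these data known.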

Additional observations from a re-analysis of the deposited data

How the results depend on the processing

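Over all genes tested, 1079 were called by limma, 488 without the intensity trend, 399 under equal summed FPKM, and 0 to 554 with 1 library left out, where the lone library of a group is assumed to vary like the other group. The share of calls towards the soma was 70.6%, 92.4% without the trend and 58.5% with limma-voom. The count of Vha genes called was 0, but 1 with limma-voom (Vha16-1) and 0 to 1 with a library left out (Vha100-4 without soma replicate 1). Over the assembly, lysosome and exchanger lists 12 were called, 4 without the trend, 5 under equal summed FPKM and 0 to 2 with a library left out. With a replicate block, 1549 genes and 0 Vha genes were called, and the adjusted p of Vha16-1 was 0.0997. The deviations of same-numbered libraries correlated at -0.10 over 7258 genes. With soma libraries of such unlike depth, this value cannot show whether same-numbered libraries shared a batch.

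Several small differences changed sign. Under equal summed FPKM the log2 fold changes were -0.31 for Vha68-2, -0.17 for Vha55, -0.25 for Vha44, -0.45 for Vha36-1, -0.46 for VhaSFD, -0.39 for Vha100-1 and -0.44 for VhaAC39-1, where the median of all genes was -0.44. Quantile normalization gave -0.038 for Vha36-1 and -0.051 for VhaAC39-1, and limma-voom gave 0.37 for Vha68-1. With 1 library left out, values ran from -2.83 to 0.48 for Vha68-1, from -0.18 to 0.30 for Vha36-1, from -0.14 to 0.38 for Vha100-1, from -0.37 to 0.094 for VhaPPA1-1 and from -0.19 to 0.33 for VhaAC39-1. Measured from the median of all genes, Vha68-2, Vha55, Vha44 and Vha100-1 stood at 0.12, 0.27, 0.18 and 0.05 under equal summed FPKM. In the deposited scaling they stood at 0.15, 0.30, 0.21 and 0.07. For Vha36-1, VhaSFD and VhaAC39-1 these distances were -0.015, -0.022 and -0.002, against 0.014, 0.006 and 0.026. Beyond these values, the cause of the sign changes was not tested. Vha16-1 kept its direction under every setting run, with log2 fold changes from 0.58 to 1.10. The depth of soma replicate 2 limits the genes with few reads there, such as Vha14-1 and VhaM9.7-c.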
